A study of Homo sapiens with 6 samples.

Results

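Cathepsins are the main peptidases of lysosomes, and transcripts of 10 of them, CTSA, CTSB, CTSC, CTSD, CTSF, CTSH, CTSK, CTSL, CTSS and CTSZ, were followed in HL-60 cells given the drug amiodarone. They were taken by gene symbol from a table of 17911 genes, and all 10 had a row. HL-60 is an established human promyelocytic leukaemia cell line, and amiodarone is an antiarrhythmic drug and a cationic amphiphilic compound, a class of molecules that collects in lysosomes. The amiodarone group held 3 RNA-seq libraries of cells given 10 µM for 24 h, and the control group held 3 libraries labelled only as control, with no vehicle named. The series title names amiodarone as a SIRT3 activator and autophagic or mitophagic death of leukaemia cells as its subject, and the lysosome, where cathepsins work, is the end point of autophagy. Only this cell line was used, so the values describe a single line at a single dose and time, and the labels do not say whether replicates came from separate cultures.

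Cathepsins are made as inactive precursors in the endoplasmic reticulum. Most carry a mannose 6-phosphate tag that takes them to endosomes, where the falling pH and other proteases release the active enzyme. They differ in chemistry. CTSD is an aspartic endopeptidase and CTSA a serine carboxypeptidase, while CTSB, CTSC, CTSF, CTSH, CTSK, CTSL, CTSS and CTSZ are cysteine peptidases related to papain, held in check by inhibitors of the cystatin family. In myeloid cells cathepsins degrade phagocytosed and autophagic cargo, process antigens and, in the case of CTSC, activate the serine proteases of granules.

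The promoters of 7 of the 10 genes were in the RefSeq table used here (GRCh38.p14), each as a window of 300 bases running from 250 before to 50 after the annotated start. CTSB, CTSK and CTSS had no entry. The windows were searched on both strands for CACGTG, the palindromic E-box at the core of the sites that the transcription factor TFEB and its relatives bind in lysosomal genes. CTSA, CTSD and CTSF held it, and CTSC, CTSH, CTSL and CTSZ did not. The 150 bases before the start are shown for CTSA, CTSD and CTSF, since these 3 hold the motif, and for CTSH. CTSH changed without the motif, as did CTSC and CTSZ to a lesser extent. They lie at chr20:45891185-45891334 on the plus strand for CTSA, and on the minus strand at chr11:1763928-1764077 for CTSD, chr11:66568607-66568756 for CTSF and chr15:78945047-78945196 for CTSH. Each stretch lies within the gene span given below from GENCODE 29, so the start used here is not the outermost annotated one. Presence or absence of the motif holds only for the starts used here. Sequences read 5′ to 3′ along the gene, and capitals mark CACGTG.
CTSA: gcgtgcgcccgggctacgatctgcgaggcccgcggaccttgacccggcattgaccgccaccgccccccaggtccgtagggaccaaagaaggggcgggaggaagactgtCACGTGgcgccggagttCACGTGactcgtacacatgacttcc
CTSD: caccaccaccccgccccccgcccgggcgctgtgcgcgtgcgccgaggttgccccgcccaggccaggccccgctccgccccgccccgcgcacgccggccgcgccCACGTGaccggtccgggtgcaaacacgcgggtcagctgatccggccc
CTSF: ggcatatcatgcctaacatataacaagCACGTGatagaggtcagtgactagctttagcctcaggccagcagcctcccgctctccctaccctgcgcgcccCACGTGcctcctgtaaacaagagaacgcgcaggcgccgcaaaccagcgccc
CTSH: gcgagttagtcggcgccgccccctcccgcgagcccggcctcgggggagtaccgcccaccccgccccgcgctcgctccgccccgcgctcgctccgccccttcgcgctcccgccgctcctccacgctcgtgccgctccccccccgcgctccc
The motif began 42 and 25 bases before the start in CTSA, 47 bases before it in CTSD, and 123 and 51 bases before it in CTSF. It was present in 7.26% of all 35116 windows of this length and in 10.7% of the 9354 windows matched to genes tested here. The stricter form TCACGTG, counted on either strand and contained in some of the same sites, was also found in CTSA, CTSD and CTSF, against 3.71% of all windows and 6.12% of those of tested genes. Of the 3 genes with the motif, CTSA and CTSD were higher after amiodarone and CTSF was lower. CACGTG stood in 9.57% of windows of genes called higher and in 11.4% of those called lower, by the test described next, and TCACGTG in 6.48% of the higher and 5.73% of the lower.

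Values are the authors' expression values. They resemble RPKM, a read count divided by gene length and by library depth, so levels of different genes can be set side by side per length. The table does not state the unit. Read as RPKM, the spacing of low values fits a depth of some 16200000 to 16600000 reads or fragments in amiodarone libraries and 18100000 to 18200000 in controls. Across genes, log2 values correlated at 0.9975 to 0.9982 within a group and at 0.959 to 0.96 between the groups. Each gene that reached a value of 1 in 3 or more libraries was tested with limma on log2(value + 1), and p-values were adjusted over all 11445 such genes with the Benjamini-Hochberg method. A gene was called at an adjusted p under 0.05. Of the 10 cathepsins 9 passed this filter, and CTSL did not. Since whole cells were pooled in each library, fewer cells of a kind and less RNA per cell cannot be told apart.

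All 9 tested cathepsins were called, 5 higher after amiodarone (CTSD, CTSH, CTSS, CTSB and CTSA) and 4 lower (CTSF, CTSK, CTSZ and CTSC). This is read against a very wide response, since 78.3% of all tested genes were called, 33.5% higher and 44.8% lower. In 79.3% of tested genes the groups did not overlap, as in all 9 tested cathepsins. Being called is therefore not particular to the cathepsins. Their log2 fold changes ran between -0.85 for CTSF and 1.13 for CTSD, with a median of 0.18, where the median of all tested genes was -0.06.

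**Figure D1:**
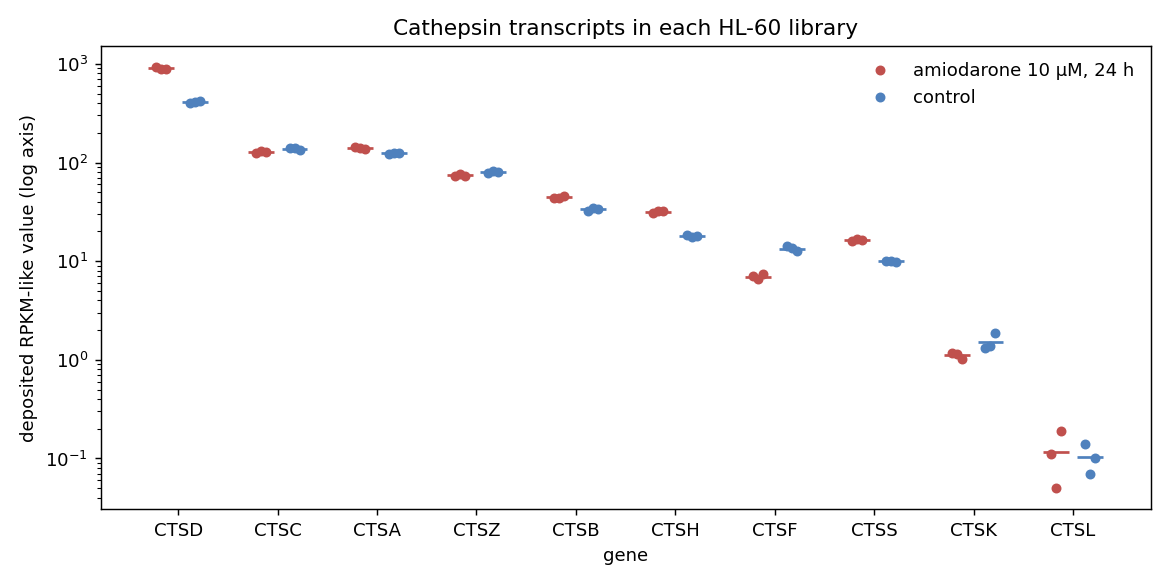
Deposited RPKM-like value (log axis) of each cathepsin gene in the 3 amiodarone libraries (left of each pair) and the 3 control libraries (right), with a bar at the group mean. CTSD stands highest in both groups, at a mean of 901 after amiodarone and 411 in controls, and CTSL lies below 0.2 in every library.

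CTSD, the major aspartic peptidase of lysosomes, was the most abundant cathepsin transcript and the one with the largest change. Its value was 930.03, 892.4 and 881.88 in the amiodarone libraries, against 400.0, 414.06 and 417.51 in the controls. The lowest amiodarone library was thus far above the highest control. The mean was 901 ± 25.3 after amiodarone and 411 ± 9.28 in controls (SD, n = 3 each), a ratio of 2.20. The log2 fold change was 1.13 ± 0.026 (SE, limma, adjusted p = 4.68e-11). Of the 11445 tested genes, 210 had a larger log2 fold change, and 14 had a larger difference between the group means. GENCODE 29 (GRCh38) places CTSD on the minus strand of chromosome 11, at 1752752 to 1764573. Its exonic bases overlap the annotated coding gene AC068580.4 on the same strand over 41.7% and the antisense gene AC068580.3 over 15.8%. The sources used here do not say how reads in those stretches were assigned.

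CTSA, also called protective protein, is a serine carboxypeptidase that shields neuraminidase and beta-galactosidase in a lysosomal complex. Its value was 143.65, 140.5 and 137.45 after amiodarone, against 122.57, 124.75 and 123.83 in controls, so the groups were apart by a small margin. The ratio of means was 1.14 and the log2 fold change 0.18 ± 0.025 (SE, limma, adjusted p = 4.92e-05). Scaling every library to the same sum brought it to 0.09, and it was still called. Its partners went in opposite directions. The neuraminidase gene NEU1 averaged 48.8 ± 1.26 after amiodarone and 35.4 ± 1.19 in controls (limma, adjusted p = 4.13e-07), and the beta-galactosidase gene GLB1 averaged 45.7 ± 1.22 after amiodarone and 55.2 ± 0.746 in controls (limma, adjusted p = 9.86e-06). CTSA lies on chromosome 20 at 45890144 to 45898820 on the plus strand, and NEURL2 on the opposite strand covers 17.7% of its exonic bases.

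Among the cysteine cathepsins, 3 rose. CTSH, mainly an aminopeptidase, had values of 31.0, 32.08 and 32.38 after amiodarone, against 18.26, 17.57 and 18.12 in controls. Its ratio of means was 1.77, the largest of the cysteine members, with a log2 fold change of 0.79 ± 0.035 (SE, limma, adjusted p = 5.05e-09). CTSS, an endopeptidase that stays active at neutral pH and cuts the invariant chain of class II antigen presentation, had values of 16.06, 16.76 and 16.54 after amiodarone, against 10.08, 10.04 and 9.88 in controls. The replicates of CTSS lay closely together in either group, and its log2 fold change was 0.67 ± 0.039 (SE, limma, adjusted p = 4.97e-08). CTSB, which acts both as an endopeptidase and as a dipeptidyl carboxypeptidase, had values of 43.56, 43.74 and 45.78 after amiodarone, against 32.04, 34.23 and 34.14 in controls. Every amiodarone library was above every control for CTSB, at a ratio of means of 1.33 and a log2 fold change of 0.40 ± 0.036 (SE, limma, adjusted p = 1.78e-06). CTSH lies on chromosome 15 at 78921058 to 78949574, CTSS on chromosome 1 at 150730196 to 150765957 and CTSB on chromosome 8 at 11842524 to 11869448, each on the minus strand.

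CTSF had the largest fall of the family. It encodes a papain-like endopeptidase with an unusually long propeptide. Its value was 7.02, 6.59 and 7.34 after amiodarone, against 14.1, 13.51 and 12.55 in controls, with a wide gap between the groups. The ratio of means was 0.522 and the log2 fold change -0.85 ± 0.055 (SE, limma, adjusted p = 1.10e-07). Of the tested genes, 533 had a more negative log2 fold change. The gene is on the minus strand of chromosome 11, at 66563463 to 66568841.

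CTSC and CTSZ were abundant and changed little. CTSC, or dipeptidyl peptidase I, is the enzyme that activates granule serine proteases by removing an N-terminal dipeptide. Its value was 125.22, 129.55 and 126.64 after amiodarone, against 139.27, 140.43 and 133.8 in controls. CTSZ, a carboxypeptidase also known as cathepsin X, had values of 73.74, 76.05 and 72.58 after amiodarone, against 78.73, 82.97 and 79.51 in controls. The groups were apart in each gene, yet the ratio of means was 0.922 in CTSC and 0.922 in CTSZ. The log2 fold change was -0.12 ± 0.027 for CTSC (SE, limma, adjusted p = 0.00237) and -0.12 ± 0.030 for CTSZ (SE, limma, adjusted p = 0.0047). Scaling moved these small values: they were -0.076 for CTSC and -0.077 for CTSZ with median-of-ratios scaling, and -0.21 for either gene with equal sums. These values lie close to the median of all tested genes: 5180 genes had a more negative value than CTSC and 6264 a larger one. CTSC lies on chromosome 11 at 88293592 to 88337787 and CTSZ on chromosome 20 at 58995185 to 59007247, each on the minus strand.

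CTSK and CTSL were near the lower limit of the data. CTSK, the collagen-degrading cathepsin best known from osteoclasts, had values of 1.18, 1.15 and 1.02 after amiodarone, against 1.32, 1.38 and 1.88 in controls. The groups did not overlap, but the third control library stood above the others. The log2 fold change was -0.25 ± 0.091 (SE, limma, adjusted p = 0.0269), and -0.41 with a pseudocount of 0.1. Without control replicate 3 it was -0.15 (limma, adjusted p = 0.135), and without amiodarone replicate 3 it was -0.22 (limma, adjusted p = 0.0848), so the call of CTSK rested on single libraries. At the depth estimated above, a CTSK value stood for about 28.6 to 32.3 reads in amiodarone libraries and 40.6 to 57.9 in controls. CTSK lies on chromosome 1 at 150796208 to 150808323, beside CTSS, which changed in the other direction.

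CTSL, a widely expressed endopeptidase of lysosomes, was barely detected. Its value was 0.11, 0.05 and 0.19 after amiodarone, against 0.14, 0.07 and 0.10 in controls, so the groups overlapped and it was not tested. These values stood for an estimated 1.77 to 6.87 reads in amiodarone libraries and 2.76 to 5.55 in controls, and no difference was detectable at this depth. CTSL lies on chromosome 9 at 87725519 to 87731393 on the plus strand.

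**Figure D2:**
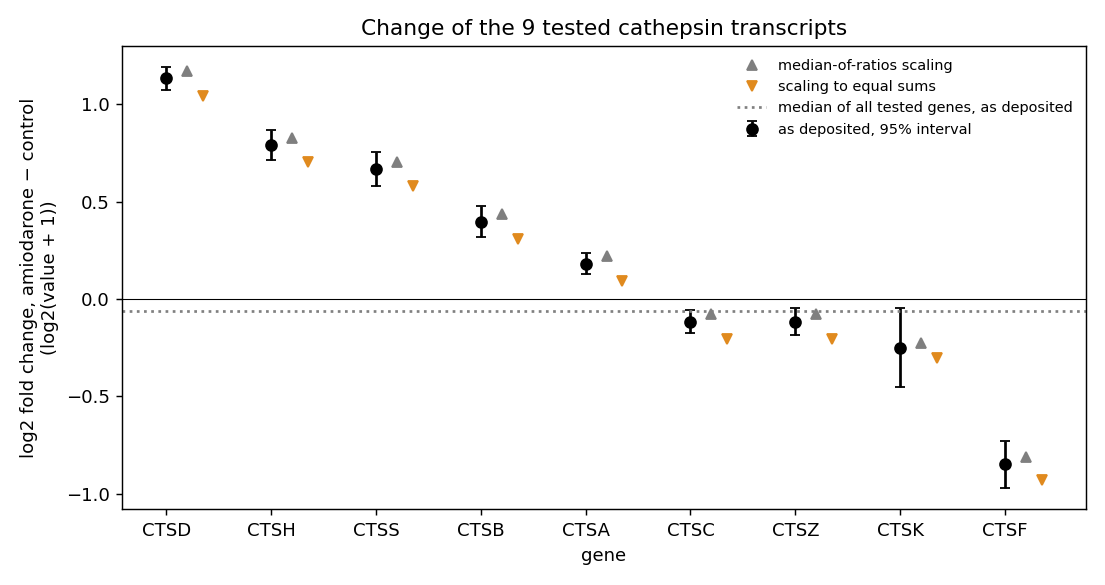
Log2 fold change (amiodarone minus control, on log2(value + 1)) of the 9 tested cathepsins, as deposited with its 95% interval (black), after median-of-ratios scaling (grey triangles) and after scaling to equal sums (orange triangles); the dotted line is the median of all tested genes at -0.06. The 5 higher and 4 lower members keep their side of 0 under all 3 scalings.

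The levels of the cathepsins kept nearly the same order in both groups. After amiodarone the order from high to low was CTSD, CTSA, CTSC, CTSZ, CTSB, CTSH, CTSS, CTSF, CTSK and CTSL. In controls CTSC stood above CTSA and CTSF above CTSS, and the other places were the same. Neighbours in either order did not overlap in their ranges over 3 libraries. The span was wide: per length, the CTSD mean was 901 after amiodarone and the CTSK mean 1.12.

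Summed over the 10 genes, the cathepsin level was 1371.57, 1338.87 and 1321.8 in the amiodarone libraries, against 816.51, 839.01 and 831.32 in the controls. The mean was 1344 ± 25.3 after amiodarone and 829 ± 11.4 in controls (SD, n = 3 each), a ratio of 1.62. Nearly all of this difference was CTSD. Its mean differed by 491, which was 95.3% of the net difference of 515, and its share of the summed level was 67.1% ± 0.649 after amiodarone and 49.5% ± 0.634 in controls. Without CTSD the sum was 443 ± 3.41 after amiodarone and 418 ± 5.81 in controls, but with scaling to equal sums it was 429 ± 4.15 after amiodarone and 432 ± 3.99 in controls, with overlapping groups. These sums are descriptions, given without a test.

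The 8 cysteine cathepsins together hardly differed in summed level as deposited, at 302 ± 4.05 after amiodarone and 295 ± 5.15 in controls, with overlapping groups. That comparison depends on scaling: the ratio was 1.03 as deposited, 1.05 after median-of-ratios scaling and 0.962 after scaling to equal sums. With either scaling the groups were apart, in opposite directions. Amiodarone libraries lay above controls with median-of-ratios scaling (305 ± 2.98 and 290 ± 5.49) and below them with equal sums (293 ± 5.24 and 304 ± 3.98). Within this sum the makeup shifted, with CTSB, CTSH and CTSS higher and CTSC, CTSZ, CTSF and CTSK lower. The cysteine members made up 22.5% ± 0.664 of the summed cathepsin level after amiodarone and 35.6% ± 0.592 in controls.

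**Figure D3:**
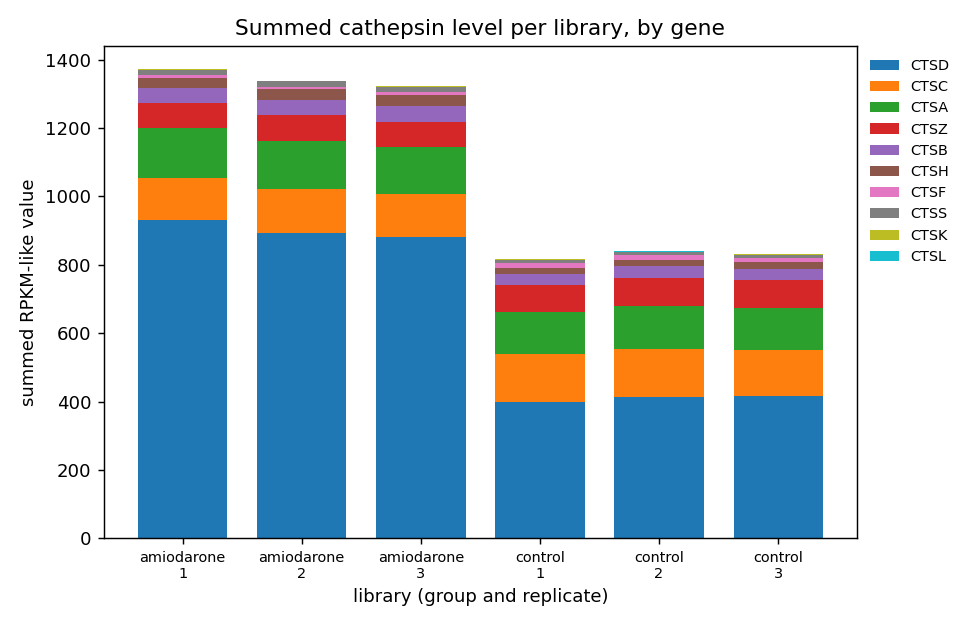
Summed RPKM-like value of the 10 cathepsin genes in each of the 3 amiodarone and 3 control libraries, stacked by gene from the bottom up in the order of the legend. The CTSD segment reaches 882 to 930 in amiodarone libraries and 400 to 418 in controls, while the segments above it sum on average to 443 in amiodarone libraries and 418 in controls as deposited, a difference that turns once all libraries have the same sum.

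**Figure D4:**
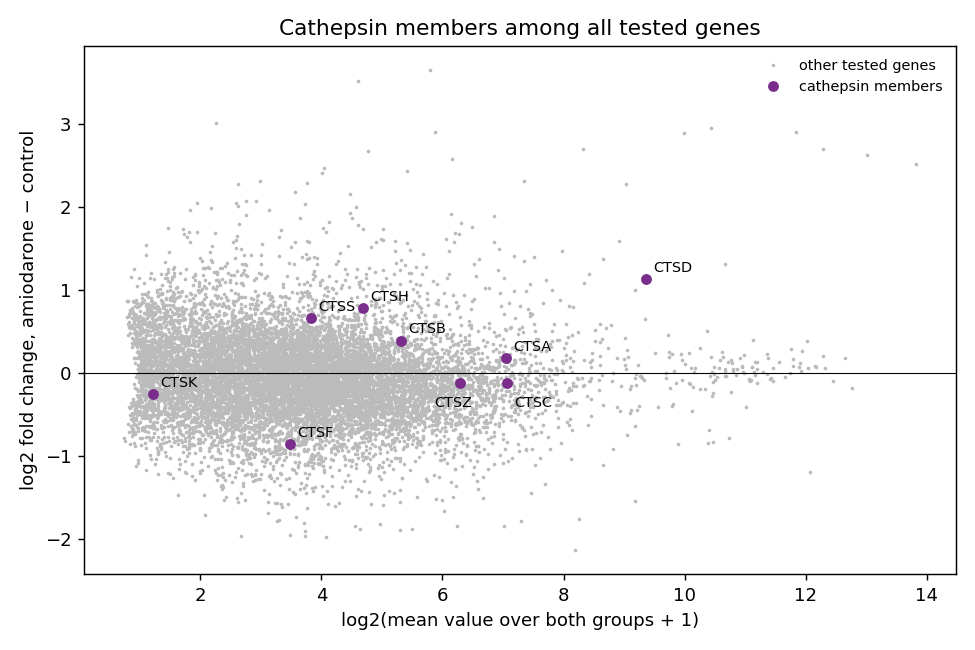
Log2 fold change (amiodarone minus control) against log2 of the mean value over both groups plus 1, for all 11445 tested genes (grey) and the 9 tested cathepsins (purple, named). CTSD lies at a high level with a change of 1.13, CTSF lies among the lower values with -0.85, and CTSC and CTSZ lie within the dense band near 0.

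Inhibitors of the cysteine cathepsins were measured beside them. Cystatins bind the active site of papain-like enzymes, and of 9 listed genes 5 had a row and 4 were tested. CST7, which encodes cystatin F, an inhibitor that reaches lysosomes and acts on CTSC and other cathepsins, had the highest level: 793 ± 21.6 after amiodarone and 667 ± 11.9 in controls (limma, adjusted p = 3.96e-06). The cytosolic inhibitors CSTA (167 ± 2.99 after amiodarone and 136 ± 4.76 in controls) and CSTB (85.6 ± 2.48 after amiodarone and 66.1 ± 1.46 in controls) rose too, and the secreted CST3 fell (70.8 ± 1.91 after amiodarone and 88.8 ± 0.608 in controls). Summed over these 4, the cystatin level was 1116 ± 23.6 after amiodarone and 957 ± 7.64 in controls. CST7 made up most of this sum, and its mean differed by 126 where the sum differed by 159. The summed cysteine cathepsin level was 0.271 ± 0.00818 of the cystatin sum after amiodarone and 0.308 ± 0.0052 in controls, a ratio within each library that no scaling changes. This ratio thus depends mostly on CST7 for its inhibitor side.

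Genes that tag and carry cathepsins to lysosomes were also measured. Of 8 tested genes of the mannose 6-phosphate route 6 fell, 1 rose and 1 was not called, where 44.8% of all tested genes were called lower and 33.5% higher. Their median log2 fold change was -0.21. GGA2, an adaptor that packs the receptors into vesicles, had the largest change (14.6 ± 0.771 after amiodarone and 23.0 ± 0.337 in controls). NAGPA, which uncovers the tag, averaged 7.03 ± 0.455 after amiodarone and 10.2 ± 0.555 in controls. The receptor gene M6PR averaged 125 ± 1.75 after amiodarone and 141 ± 2.46 in controls. PHC1 on the opposite strand covers 29.3% of the exonic bases of M6PR, and how shared reads were assigned is not stated. The 1 that rose was the adaptor gene GGA1, whose call was lost after scaling to equal sums.

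Other lysosomal genes moved both ways, where 33.5% of all tested genes were called higher and 44.8% lower. Of 5 tested lysosomal peptidases outside the cathepsins 2 rose and 3 fell. SCPEP1, a serine carboxypeptidase related to CTSA, averaged 97.2 ± 2.11 after amiodarone and 74.1 ± 2.10 in controls. The tripeptidyl peptidase gene TPP1 averaged 96.9 ± 1.92 after amiodarone and 124 ± 0.936 in controls, and PRCP, a prolylcarboxypeptidase, 53.4 ± 3.15 after amiodarone and 72.6 ± 2.97 in controls. Of 16 glycosidases and sulfatases 5 rose, 8 fell and 3 were not called (median -0.06, beside -0.06 for all tested genes). SGSH, the heparan sulfamidase, had the largest rise of that list (8.34 ± 0.919 after amiodarone and 2.91 ± 0.147 in controls). Of 6 membrane protein genes CD63 and LAPTM5 rose and LAMP1 and LAPTM4A fell. The other two, LAMP2 and SCARB2, were not called as deposited or with equal sums and were called higher with median-of-ratios scaling.

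Of the MiT/TFE transcription factors, which switch on many lysosomal genes including cathepsins, TFE3 and TFEB rose. TFE3 averaged 38.7 ± 2.15 after amiodarone and 22.5 ± 0.813 in controls (limma, adjusted p = 4.88e-08), and TFEB 7.08 ± 0.313 after amiodarone and 3.68 ± 0.0404 in controls (limma, adjusted p = 1.48e-07). MITF averaged 1.18 ± 0.0513 after amiodarone and 0.637 ± 0.0902 in controls, and since only its amiodarone values reached the filter, no test is given for it. TFEC was not called. Nuclear location and activity of these factors were not measured here.

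Genes listed as targets of CTSC, granule serine proteases and their relative AZU1, fell in all 5 tested cases. Of all tested genes, 44.8% were called lower. PRTN3 averaged 107 ± 3.01 after amiodarone and 472 ± 19.6 in controls, ELANE 7.36 ± 0.805 after amiodarone and 20.5 ± 0.495 in controls, and CTSG, a granule protease that carries the cathepsin name, 70.1 ± 0.942 after amiodarone and 133 ± 4.15 in controls. Over all 5, which include AZU1, the median log2 fold change was -0.93, beside -0.12 for CTSC itself. PRTN3, ELANE and AZU1 are also counted among the promyelocyte markers below, so these are not separate observations.

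**Figure D5:**
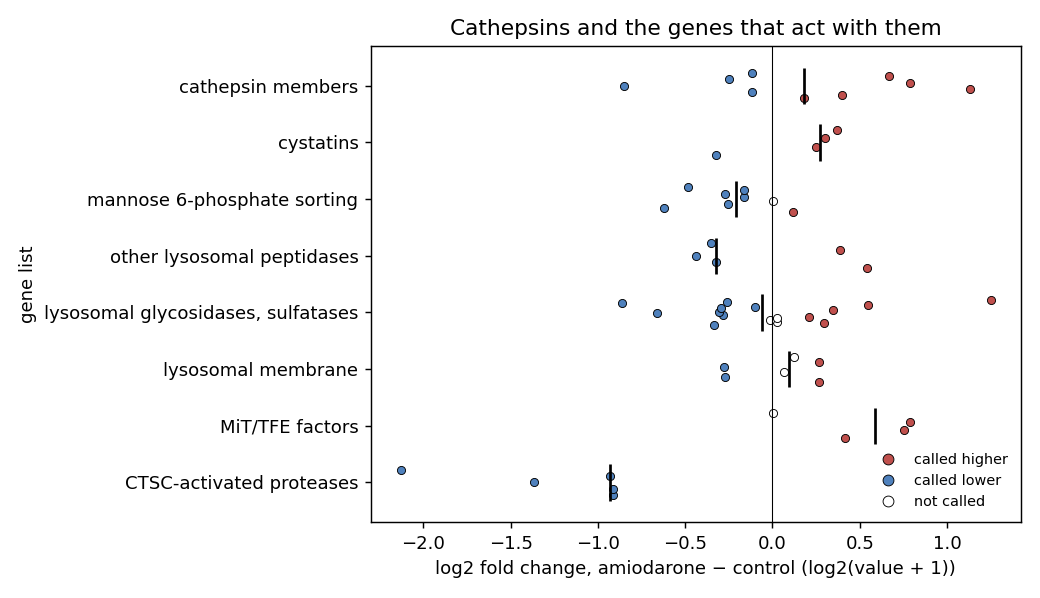
Log2 fold change (amiodarone minus control, on log2(value + 1)) of every tested gene of the cathepsin family and of 7 lists of genes that act with them, 1 point a gene, coloured by call, with a bar at the list median; MITF is plotted although only its amiodarone values reached the filter. The cathepsins spread to both sides of 0 (median 0.18), and the mannose 6-phosphate route lies mostly to the left (median -0.21). The list labelled CTSC-activated proteases, which includes AZU1, lies wholly to the left (median -0.93).

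Markers of cell type moved with these changes. The libraries expressed the promyelocyte markers MPO, AZU1, PRTN3, ELANE and MYB. Their summed level was 2956 to 3010 after amiodarone and 6723 to 6844 in controls, with 4 of 5 lower and MYB higher (MYB was not called after scaling to equal sums). MPO made up most of this sum, at 2613 ± 28.4 after amiodarone and 5962 ± 43.7 in controls. Of 6 monocyte and macrophage markers only CD68, itself a lysosomal protein, was abundant enough to test, and it rose (43.2 ± 2.07 after amiodarone and 31.9 ± 1.33 in controls). The annotated transcript AC016876.2 on the same strand covers 81.7% of the exonic bases of CD68, and how shared reads were assigned is not stated. The summed level of those 6 was 43.3 to 47.0 after amiodarone and 32.4 to 34.8 in controls, and the other 5 lay under the filter, with values in both directions. CD163 averaged 0.787 ± 0.0379 after amiodarone and 0.05 in each control, CD14 0.793 ± 0.164 after amiodarone and 0.347 ± 0.0907 in controls, and CSF1R 0.557 ± 0.0551 after amiodarone and 1.09 ± 0.165 in controls. MRC1 and MARCO had means of at most 0.0667 in either group. Of 5 mature neutrophil markers MMP9 rose and CSF3R and CXCR2 fell, FCGR3B and LTF were below the filter, and the sum was 95.5 to 99.9 after amiodarone and 98.4 to 100.5 in controls. Lymphoid and erythroid markers summed to 1.98 to 2.68 after amiodarone and 2.10 to 2.82 in controls. Osteoclast markers were below the filter and summed to 0.88 to 1.04 after amiodarone and 0.08 to 0.19 in controls. Most of that was OCSTAMP (0.807 ± 0.153 after amiodarone and 0.0867 ± 0.0603 in controls), beside ACP5 (0.15 ± 0.157 after amiodarone and 0.0267 ± 0.0231 in controls) and CALCR, with means of at most 0.00667. The part of a shift in maturation state in the cathepsin values was not tested.

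By a rule on likeness, the tested genes outside the family with the closest profile were found for CTSD and CTSF, as the root mean square difference of centred log2(value + 1) over the 6 libraries. For CTSD they were CD70 (0.0175), NAV3 (0.0272) and KRT23 (0.0304). For CTSF they were SLFN13 (0.0276), SETD6 (0.0314) and FAM83H (0.036). CD70, a ligand of the tumour necrosis factor family, averaged 288 ± 6.36 after amiodarone and 132 ± 1.87 in controls. Over 2 groups, this measure is set mostly by the size of the group difference.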

How the data were processed

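Libraries were prepared from total RNA of HL-60 cells with a kit for stranded mRNA sequencing, as the labels' protocols state. Among the tools in the submitters' processing notes are STAR 2.5.3a, featureCounts and fastp 0.23.4, and the build given there is GRCh38.p12; their roles are not stated. The authors deposited 1 length-normalised value per gene and library, treated here as RPKM, with the unit not stated per the file headers. No source used here gives the strand setting or the handling of shared reads.

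Values were used as deposited. The design named limma for normalized values: limma 3.58.1 in R 4.3.3 (lmFit, eBayes with trend) on log2(value + 1), with 4 residual and 6.59 prior degrees of freedom and no covariate, which understates changes of low genes. Ratios are of group means. Since separate cultures are not stated, p-values reflect only the variation among these libraries, possibly technical. At most 0.751% of tested genes had identical values in 2 libraries. The depth was fitted to steps of low values of short genes, with the length of the longest annotated transcript. From a range of depths, the one with the largest share of values near a whole read was taken. At that depth 47.6% to 54.3% of those values lay within 0.15 of a whole read. Part of that share would arise at any depth, so the depth is an estimate, and reads were not recovered. The model was tested on simulated data with independent libraries and far fewer changed genes than here. That test does not bear on scaling or on variation shared among replicates.

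The members, gene lists and tests were chosen with earlier results of these data known. Named are all 10 members and, of each list, the called genes with the smallest adjusted p (up to 3 a direction), with lists of 6 or fewer genes in full; a gene that the rule would name is not reported here. Gene positions and overlaps are from GENCODE 29. Alternatives were other pseudocounts, filters, scalings and variance models, a replicate block and leaving out each library.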

Additional observations from a re-analysis of the deposited data

How the results depend on the processing

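The calls of CTSA, CTSB, CTSC, CTSD, CTSF, CTSH, CTSS and CTSZ kept their direction and significance in all 14 alternatives, with log2 fold changes of 1.04 to 1.17 for CTSD, 0.09 to 0.22 for CTSA and -0.93 to -0.81 for CTSF. CTSC (adjusted p up to 0.024) and CTSZ (up to 0.0421, limma) were closest to the threshold, each with median-of-ratios scaling. CTSK was not called without a filter on low values (-0.25, limma, adjusted p = 0.0522), and leaving out single libraries gave -0.31 to -0.15; it was not tested at a minimum value of 5, and the cause was not tested. CTSL was tested only without a filter (0.016, limma, adjusted p = 0.806). The number of members called lower was 3 without a filter, at a minimum of 5 and without amiodarone or control replicate 3. The median over the members was 0.10 without a filter and 0.29 at a minimum of 5, since members entered or left; it was 0.22 with median-of-ratios scaling, 0.092 with equal sums and 0.17 to 0.20 without 1 library. The summed cathepsin ratio was 1.67 with median-of-ratios scaling and 1.52 with equal sums. Same-numbered libraries did not deviate together (correlations of -0.155, -0.0182 and -0.0231), and the replicate block left 8770 genes called, with 5 members higher and 4 lower. By the estimated depth, CTSK and CTSL rest on the fewest reads of the members.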

Other observations

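Further genes near the cathepsins gave values outside the comparisons above. LGMN, chosen after its values were seen, is the asparaginyl endopeptidase that cuts several cathepsin precursors into 2 chains. It was below the filter at 1.17, 1.09 and 0.75 after amiodarone, against 0.24, 0.25 and 0.52 in controls, with no overlap and no test. CTSO, a little-studied cysteine cathepsin, was likewise untested at 0.42, 0.42 and 0.34 after amiodarone, against 0.18, 0.16 and 0.09 in controls. CTSE, an aspartic cathepsin of endosomes, lay the other way at 0.15, 0.06 and 0.03 after amiodarone, against 0.17, 0.32 and 0.28 in controls, also untested. CTSV, the closest relative of CTSL, averaged 0.65 ± 0.101 after amiodarone and 1.03 ± 0.0208 in controls, and no test is given because it passed the filter only through the controls. CTSW averaged 7.17 ± 0.90 after amiodarone and 6.59 ± 0.165 in controls (limma, adjusted p = 0.229).

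In class II antigen presentation, where CTSS acts, 6 genes were listed. Only 4 of them had a row, and 1 of these lay near 0 in both groups and was untested. The invariant chain gene CD74 averaged 71.7 ± 1.45 after amiodarone and 49.5 ± 0.717 in controls (limma, adjusted p = 2.35e-08). HLA-DMA, which encodes a chain of the peptide-loading protein, averaged 4.76 ± 0.446 after amiodarone and 6.43 ± 0.587 in controls (limma, adjusted p = 8.93e-04). CIITA, the class II transactivator gene, averaged 1.14 ± 0.0624 after amiodarone and 0.873 ± 0.107 in controls, and only its amiodarone values reached the filter, so no test is given.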
